A study of Mus musculus with 4 samples.

Results

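Cdk6 encodes a cyclin-dependent kinase of the G1 phase, and its mRNA carried 20 of the 4172 distinct NAT10 peaks mapped by eCLIP in mouse 32D cells (0.479%). The peaks were chosen by their gene symbol, so all 20 peaks listed under Cdk6 are described. NAT10 is the acetyltransferase that places N4-acetylcytidine on RNA. In eCLIP, ultraviolet light ties a protein to the RNA it touches, an antibody collects the protein, and the RNA fragments attached to it are sequenced beside an input that skipped the antibody. The study asked which mRNAs NAT10 touches directly, to approach its role in haematopoietic stem cells. It had 2 libraries of NAT10 immunoprecipitates (IP) and 2 input libraries without antibody, all from wild-type 32D cells, a line that the labels trace to mouse bone marrow. All cells grew in RPMI1640 with 10% FBS and 10 ng/mL mouse interleukin-3 and were irradiated at 254 nm with 150 mJ. The labels do not say whether the libraries came from separate cultures, and no expression values were at hand to check the line against its markers.

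CDK6 pairs with a D-type cyclin, and the active pair phosphorylates the retinoblastoma protein, which then releases E2F factors and lets the cell begin DNA synthesis. INK4 proteins block the kinase, and CIP/KIP proteins bind and regulate its complexes. In blood, CDK6 is the D-cyclin kinase known for governing how readily stem and progenitor cells leave quiescence. The mouse and human Cdk6 mRNAs are known for a very long 3' UTR, the untranslated part after the stop codon, where many regulators of mRNA stability bind.

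Every Cdk6 peak lay on the plus strand and in the authors' 3' UTR class. None was listed in the coding exons or the 5' UTR, though the list holds only peaks above a minimum (the lowest log2 fold in it is 3.00), so weaker contact there would not be seen. The first peak began at chromosome 5, position 3571197, and the last ended at 3579781 (GRCm39), a stretch of 8585 nt. Peaks covered 1220 nt of it, or 14.2%. They were short, with widths of 28 to 126 nt and a median of 47 nt, against a median of 87 nt for the other 2383 peaks of the 3' UTR class. Some were cut pieces of longer sites: 4 of the 19 gaps between neighbours were 0 nt, and joining peaks that touch left 16 regions. Joining peaks up to 200 nt apart left 11 regions, of which 4 held 13 of the peaks. The longest bare interval was 1695 nt, and 3 intervals exceeded 1000 nt. The position of the Cdk6 stop codon was not used here, so distances below are counted from the first base of the first peak.

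The list gives each peak 1 fold and 1 p, both the authors' own. Fold is the log2 ratio of IP over input, and p is on a -log10 scale. The Cdk6 folds ran from 3.06 to 7.41 with a median of 5.44, which is 43.4-fold, against a median of 4.62 for the other peaks of the 3' UTR class. Of the 20 peaks, 14 had a fold above the median of the whole list (49.2% of all peaks did), and 11 lay above its upper quartile (24.9% of all peaks). The -log10 p ran from 6.48 to 42.3 with a median of 13.8, against 5.68 for the other peaks of the 3' UTR class. All 20 Cdk6 peaks stood above the list's median -log10 p of 5.68 (49.5% of all peaks did), and 13 stood above the upper quartile of 10.6 (24.7%). These counts describe peaks that were chosen because they are listed, and nothing is inferred from them.

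More could be read from the steps in these values. Across the list, the fold matched the mean of 2 log2 ratios, 1 for each pair of an IP and an input library, and the listed p matched the unadjusted p of just 1 of the pairs. The match was with a one-sided Fisher's exact test for inputs of under 5 reads and with a chi-square test with continuity correction from 5 reads on. Fitting these steps gave totals of about 2210000 IP reads and 4100000 input reads for the pair called A here, and 2570000 IP reads and 4180000 input reads for pair B. A single solution was found for 3772 peaks (90.4%), among them all 20 of Cdk6, where the computed -log10 p met the listed one within 3.8e-06. For each Cdk6 peak this yields the reads of the pair whose p is listed and the fold of both pairs. The reads are inferred, not taken from a count table, and which pair is replicate 1 of the labels is unknown. An input of 1 read may also be a 0 that was replaced by 1. Neighbouring peaks may share reads.

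**Figure D1:**
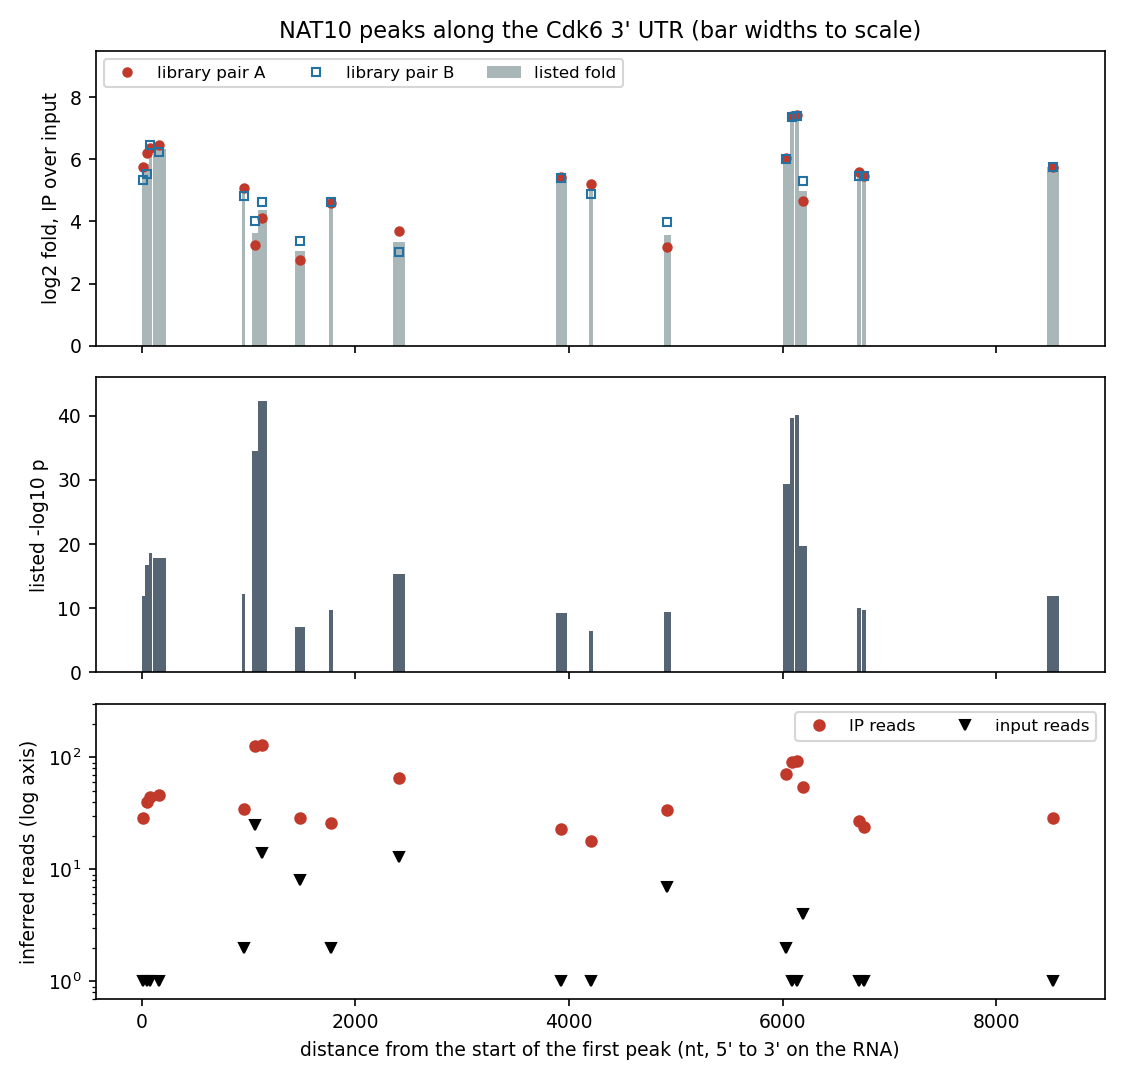
The 20 Cdk6 peaks by distance from the start of the first peak in nt, 5' to 3' on the RNA. Top: listed log2 fold (grey bars, widths to scale) with the inferred folds of library pairs A (red circles) and B (blue squares). Middle: listed -log10 p. Bottom: inferred IP reads (circles) and input reads (triangles) of the pair whose p is listed, on a log axis. Folds reach 7.41 at 6116 to 6150 nt, while the highest -log10 p, 42.3, stands at 1092 to 1171 nt, beside the most numerous input reads.

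The strongest binding by fold sat in a block of 4 peaks, 6003 to 6229 nt into the stretch (chromosome 5, 3577200 to 3577426). The peak at 3577313 to 3577347 had a listed log2 fold of 7.41, the highest of the gene and 170.2-fold on the linear scale. The pairs gave 7.42 in A and 7.41 in B, and pair A held 92 IP reads and 1 input read. The neighbour 8 nt upstream, at 3577265 to 3577304, was nearly as strong. It had a listed fold of 7.38 (7.40 in A and 7.36 in B) from 91 IP reads and 1 input read in pair A. The flanks were weaker. The 5' flank, 3577200 to 3577264, had a fold of 6.03 with 71 IP reads and 2 input reads in pair A, and the 3' flank, 3577348 to 3577426, had 4.97 with 54 IP reads and 4 input reads. The fold was thus highest over a core of 83 nt in the middle of the block, and it lay lower on either side in both pairs.

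A second block of 4 peaks opened the stretch, at 3571197 to 3571426. Its listed folds from 5' to 3' were 5.55, 5.86, 6.41 and 6.34, with -log10 p between 11.9 and 18.6. Each had 1 input read in the pair whose p is listed, against 29, 40, 44 and 46 IP reads. Pair A gave 5.75, 6.21, 6.35 and 6.45, and pair B gave 5.35, 5.51, 6.46 and 6.23, so both pairs placed the 2 downstream peaks above the 2 upstream ones, by less than the counting error given below.

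The third block looked different from these. Between 943 and 1171 nt it held a narrow peak with a fold of 4.95 and, beside it, a peak at 3572230 to 3572283 with a fold of 3.62 and one at 3572289 to 3572368 with a fold of 4.36. The last had the highest -log10 p of all Cdk6 peaks, 42.3, and its neighbour had 34.6. Both rested on more IP reads than any other peak of the gene, 129 IP and 14 input reads for the peak at 3572289 and 126 IP and 25 input reads for that at 3572230, in pair A. IP reads there exceeded those of the strongest core by fold, yet input reads were many times more numerous. The peaks at 3572289 and 3572230 were 80 and 54 nt wide, those of the core at 3577313 and 3577265 only 35 and 40 nt. Reads here and below are not scaled to width. The strongest core by fold had nearly the same -log10 p, 40.2 at 3577313 and 39.7 at 3577265, both above the 34.6 at 3572230. A high -log10 p thus came with high fold and 1 input read in the core, and with modest fold and many input reads here.

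The remaining peaks were more scattered. A pair at 6693 to 6776 nt had folds of 5.53 and 5.47 over 27 and 24 IP reads. The last peak of the stretch, 1695 nt further on at 3579669 to 3579781, had 5.75 with 29 IP reads and 1 input read in pair A. In the middle, peaks at 3575077 and 3575386 had folds of 5.41 and 5.05 over 23 and 18 IP reads. These last had a modest -log10 p, and the peak at 3575386 had the lowest of the gene, 6.48. The peak at 3572950 had a fold of 4.60 with 26 IP reads and 2 input reads. The lowest folds belonged to isolated peaks at 3572636 to 3572728 (3.06), 3573547 to 3573660 (3.35) and 3576086 to 3576148 (3.57). They had 29, 65 and 34 IP reads and 8, 13 and 7 input reads, so it was again the input that was high there.

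Input reads divided the Cdk6 peaks into kinds. In the pair whose p is listed, 11 of 20 peaks had 1 input read (71.4% of all peaks with a single solution did), 4 had 2 to 4 reads and 5 had 7 to 25 reads. The 5 peaks with 7 or more input reads were those with the 5 lowest folds, 3.06 to 4.36, which follows in part from fold being a ratio to input. All 5 lay between 1033 and 4951 nt, as did the peaks at 3572950, 3575077 and 3575386 with fewer input reads. IP reads of the 5 ran from 29 to 129. Only those at 3572230 and 3572289 were above the range of 18 to 92 seen at the 15 other peaks. Across the 20 peaks the rank correlation between fold and -log10 p was 0.40, and between IP reads and -log10 p it was 0.93. These describe 1 transcript whose peaks share their libraries, and p is computed from the reads. For the 4152 peaks of other genes the rank correlation of fold with -log10 p was 0.73. The 2 core peaks ranked 1 and 2 by fold and 2 and 3 by -log10 p, so they stood near the top by either value, while the peak at 3572289 ranked 1 by -log10 p and 16 by fold.

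**Figure D2:**
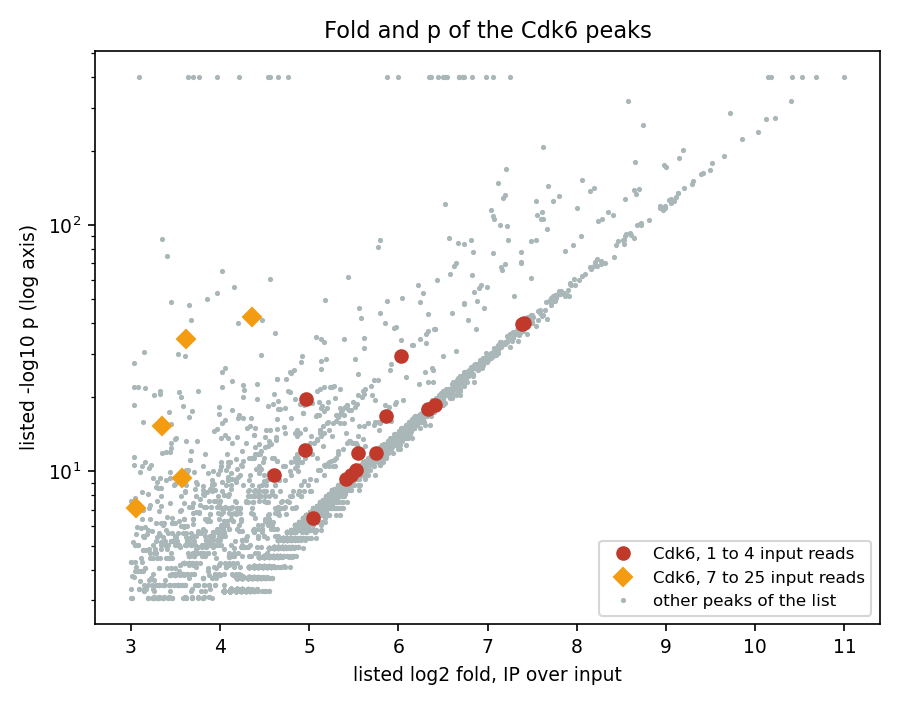
Listed log2 fold of IP over input (x) and listed -log10 p (y, log axis) of the Cdk6 peaks with 1 to 4 input reads (red circles), those with 7 to 25 input reads (orange diamonds) and the peaks of all other genes (grey). The 5 orange peaks have folds of 3.06 to 4.36 and -log10 p up to 42.3, and the other Cdk6 peaks lie at 4.60 or higher in fold.

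The counting error behind a fold followed the input count. For the strongest peak, 92 IP reads over 1 input read gave a log2 fold of 7.42 in pair A with a 95% interval of 4.90 to 12.7 (exact binomial, Clopper-Pearson). For the peak with the most IP reads, 129 over 14 gave 4.10 with an interval of 3.30 to 5.01. These intervals cover counting error only, and an input of 0 counted as 1 would leave the upper bound open. Intervals spanned 7.83 to 8.04 log2 units where the input was 1 read and 1.31 to 2.61 units where it was 7 or more. A narrow interval did not mean close pairs, as the pairs differed by 0.53 to 0.80 at the 5 peaks with 7 or more input reads. At 3572230 the interval from pair A was 2.60 to 3.91, and the fold of pair B, 4.02, lay outside it. The intervals of 4 peaks lay wholly below that of the strongest, namely those at 3572230, 3572636, 3573547 and 3576086, whose highest upper bound was 4.59. The intervals of the other 15 overlapped it. The interval of the strongest peak thus lay apart from those of 4 of the 5 sites with high input. That peak was picked for its fold and those sites for their input, which itself lowers fold, so the gap is a description. Each interval is from the pair whose p is listed, which was pair B at 3573547 and pair A at the strongest peak. Most of the order among the remaining sites lay within counting error. All 20 intervals had a lower bound above 1, the lowest being 1.59. The same reads placed these peaks in a list whose lowest fold is 3.00 and lowest -log10 p 3.07. Such bounds are therefore no separate support for the peaks.

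The pairs ranked the sites alike. Pair A gave Cdk6 folds of 2.75 to 7.42 with a median of 5.45, and pair B gave 3.03 to 7.41 with a median of 5.38. The difference between pairs was at most 0.5 log2 units at 13 of 20 peaks (84.6% of all peaks with a single solution). It had a median of 0.22 at Cdk6 and of 0.19 over the 3752 peaks of other genes with a single solution, and its maximum at Cdk6 was 0.80. Pair A was higher at 13 peaks and pair B at 7, while pair A was higher at 45.8% of the peaks of other genes with a single solution. At the 5 peaks with 7 or more input reads the pairs differed by 0.53 to 0.80, and pair B was higher at 4 of them. The share over all listed peaks with that many input reads was not computed. The rank correlation of the folds of both pairs over the 20 peaks was 0.97, over sites of 1 transcript that passed the same listing. At each peak with 1 input read in the pair whose p is listed, 1 was also the smallest input that fitted the other pair. If both inputs were 1, or a 0 replaced by 1, likeness of the folds there reflects the IP reads alone. Only the peak at 3572636 had a fold under 3 in a pair, 2.75 in A against 3.37 in B.

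**Figure D3:**
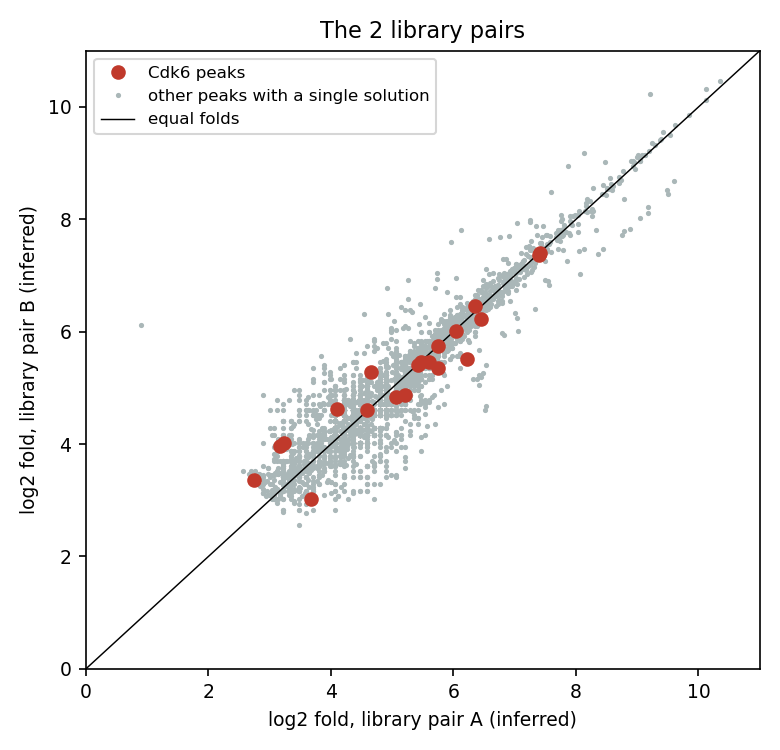
Inferred log2 fold of library pair A (x) and pair B (y) for the Cdk6 peaks (red) and for the peaks of other genes with a single solution (grey), with the line of equal folds. The Cdk6 peaks run from about 3 to 7.4 in both pairs and lie within 0.80 of the line in log2 units.

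Among all 1626 gene symbols in the list, Cdk6 held the sixth place by number of peaks, shared with Eef1a1, which also had 20. Mbnl1, Mdm4 and Luc7l2 stood above it with 22 each, and Frrs1 below it with 18. Counting 3' UTR peaks alone, Cdk6 came second with 20, after Mecom with 23 and before Mdm4 with 17. By its strongest fold it came at place 53, next below Slc7a1 (7.42), and by the median fold of its peaks at place 185. Its place was thus higher by the number of sites than by their strength. At least 10 peaks were listed for 41 symbols (2.52%), and in 10 of these (24.4%) every peak was in the 3' UTR class. Among these 10 genes Cdk6 had the longest stretch, 8585 nt, followed by Nucks1 with 3849 nt and Cyb5r1 with 3731 nt. Within these 10 it also had the lowest density, 2.33 peaks per 1000 nt and 14.2% of bases covered. Among all 1147 genes with a 3' UTR peak it ranked 24 by the genomic span of those peaks. At the other end, the 11 peaks of Bin2 covered 99.5% of 430 nt and the 11 of Mdm2 99.8% of 475 nt, so the same kind of count came from dense packing there and from a long chain of separate sites in Cdk6. How long each 3' UTR is was not taken into account.

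**Figure D4:**
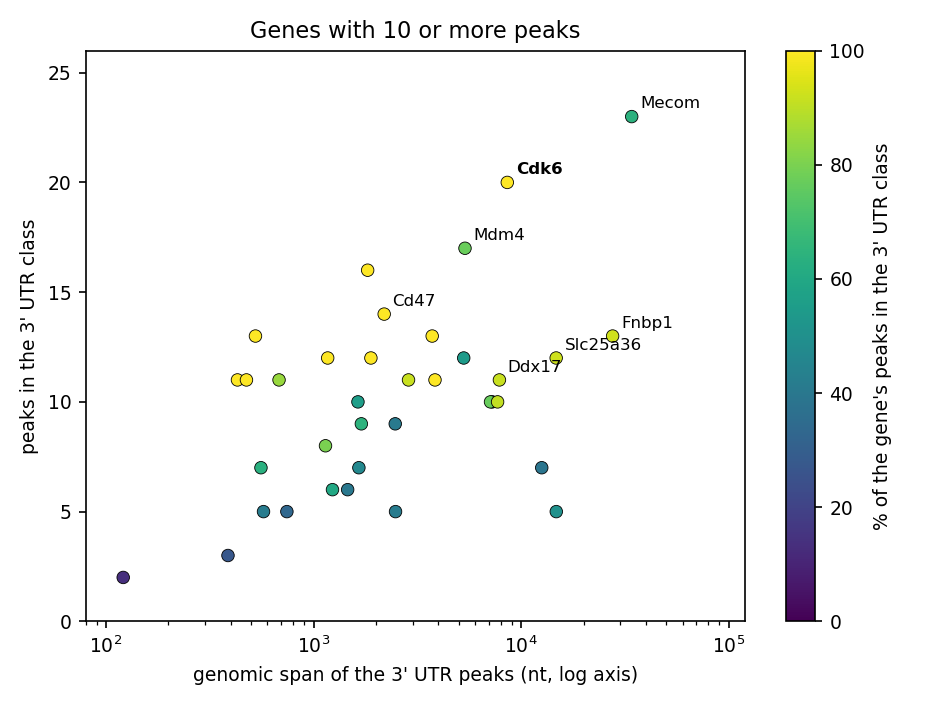
Number of 3' UTR peaks (y) against the genomic span of those peaks in nt (x, log axis) for genes with 10 or more peaks of which at least 2 are in the 3' UTR class. Colour gives the share of the gene's peaks in that class. Cdk6, with 20 peaks over 8585 nt and a share of 100%, lies below Mecom alone in number.

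Likeness to Cdk6 was measured over the number of peaks, the span of 3' UTR peaks, the median fold and the share of peaks in the 3' UTR, as a distance in SD units among the genes with 10 or more peaks. The nearest was Mdm4, whose protein restrains p53, at a distance of 0.98. It had 17 of 22 peaks in the 3' UTR over 5369 nt and a median fold of 5.54. Next came Slc25a36, a mitochondrial carrier of nucleotides (1.59), Cd47, the cell surface signal that restrains macrophages (1.61), Fnbp1, a membrane-bending protein (1.62), and Ddx17, an RNA helicase (1.79). Their 3' UTR peaks spanned 14767, 2190, 27624 and 7867 nt of the genome, which may include introns. Median folds were 5.04 for Slc25a36, 5.64 for Cd47, 4.72 for Fnbp1 and 5.12 for Ddx17, against the 5.44 of Cdk6. The highest fold of these 5 genes was 6.76, in Cd47, so none held a site with a listed fold as high as the core of Cdk6. That value lies inside the counting interval of the strongest Cdk6 peak, 4.90 to 12.7 in pair A. The genes also differ in number of peaks, which affects a maximum. Of the 5, Cd47 alone had a higher top -log10 p, 43.6, than the 42.3 of Cdk6. When the share in the 3' UTR was left out of the measure, 1 of the 5 genes, Mdm4, stayed among the nearest.

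**Figure D5:**
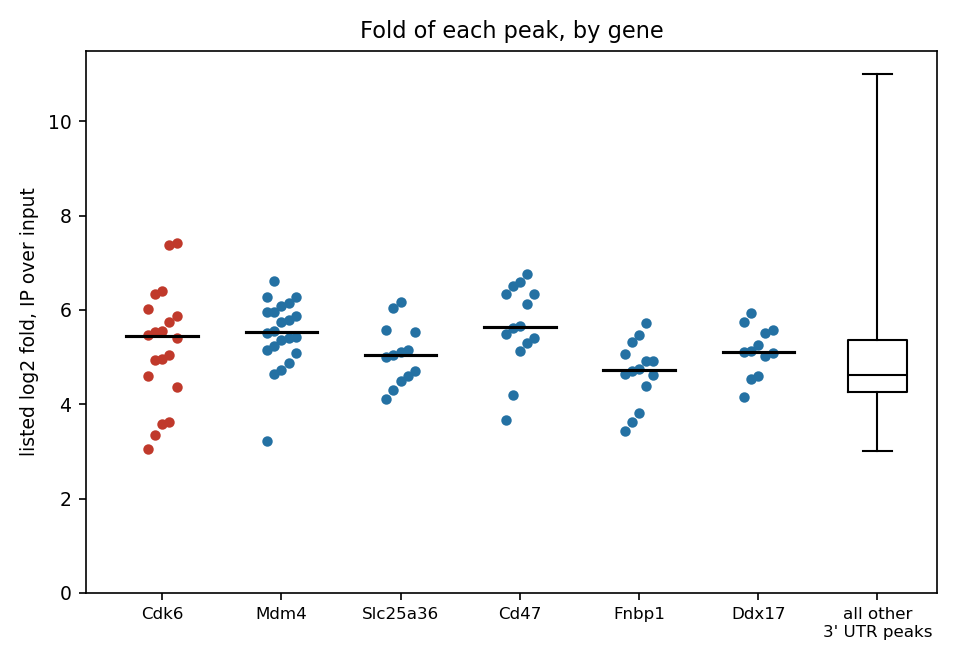
Listed log2 fold of every peak of Cdk6 (red) and of the 5 genes most like it (blue), with black lines at the medians, beside the peaks of the 3' UTR class of all other genes than Cdk6 (box from the lower to the upper quartile, line at the median of 4.62, whiskers to the lowest and highest value). Cdk6 spans 3.06 to 7.41, and the top values of the other 5 genes lie at 6.76 or lower.

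Other genes around the kinase had fewer listed peaks each. Of a list of 36 genes of the G1 pathway and chaperones of the kinase, 11 had a peak (30.6%), against 7.33% of all protein-coding genes, whether or not 32D cells express them. The 11 include all 3 chaperone genes. The list was chosen with earlier results of these data known, so the shares are a description and the difference was not tested. Together the 11 genes had 37 peaks, and none had more than 8. Of the D cyclins that activate CDK6, Ccnd2 had 6 peaks, all in the 3' UTR, with folds of 3.50 to 5.05, while Ccnd1 and Ccnd3 had none. The related kinase gene Cdk4 had 1 peak, in an exon (4.38), and Cdk2, whose kinase acts later at the start of S phase, had 1 in the 3' UTR (3.78).

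Among inhibitors, Cdkn1a, which encodes p21, had 8 peaks, 4 in the 3' UTR and 4 in the 5' UTR, with a top fold of 5.83. Cdkn1b, the p27 gene, had 1 (4.11). The INK4 gene Cdkn2c, for p18, had 1 (4.32), and Cdkn2a, Cdkn2b and Cdkn2d had none. Downstream of the kinase, none of Rb1, Rbl1 and Rbl2 had a peak. Of 10 genes for E2F factors and their partners, E2f8, a repressor, had 2 peaks with a top fold of 7.66, above the 7.41 of Cdk6, and Tfdp1, an E2F partner, had 4 up to 5.55. All 3 genes for the chaperones that fold and hold the kinase were listed, Hsp90aa1 with 6 peaks (top fold 6.00), Cdc37 with 4 (4.75) and Hsp90ab1 with 3 (3.32). Both genes of E cyclins, all 3 of the CDK-activating kinase, Cdc25a, Fbxo31 and Ambra1 had none. A gene without a listed peak is not shown to be free of NAT10, and expression in these cells was not used here.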

How the data were processed

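The deposited data were 1 peak list for 2 NAT10 IP and 2 input libraries. Its log2 fold and -log10 p columns were made by the authors, per the file headers, without an error for any peak. Positions are on GRCm39, the build named in the submitters' processing notes. No source used here names the aligner, peak caller or filters. Rows that repeat a peak under another gene identifier were counted once per gene. Starts were read as in the peak names, counted from 1. Library totals and reads were inferred from the steps of both columns with Python 3.11.15 and scipy 1.17.1, accepting a -log10 p within 1e-05 and a ratio of whole numbers with a denominator up to 60. The procedure was tested on simulated peaks made with the same assumed tests and mean of log2 ratios. Their IP reads were fewer than those of the strongest Cdk6 peaks. Their input reads were fewer than the 13, 14 and 25 at the Cdk6 peaks at 3573547, 3572289 and 3572230. The simulation checked the solving within its range of reads, and not those assumptions. Of the peaks without a single solution, 349 had several and 51 none, of which 34 stand at the ceiling of 400. Where 1 input read fitted both pairs, the listed p was the weaker one at 2612 of 2651 peaks. Symbols were matched to the RefSeq table of GRCm38.p6 (1609 of 1626), used for names and gene types alone. Genes were named by likeness to Cdk6, by rank beside it, or by the G1 pathway list, and a gene that this rule names is not reported here. Mecom and the genes with every peak in the 3' UTR were named after their values were seen. The peaks and lists were chosen with earlier results of these data known, and no test was made on them. Alternatives joined, weighted or left out peaks, or changed the measure.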

Additional observations from a re-analysis of the deposited data

How the results depend on the processing

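Of 21 alternatives, 16 left their value within 1.5 times the reported count or rank, or within the binomial interval of the reported median or share. Among the 16, leaving out peaks narrower than 20 nt could change nothing, as the narrowest Cdk6 peak has 28 nt. With peaks above the median fold of the list alone, Cdk6 had 10 bound regions instead of 16, and they covered 9.11% of their stretch instead of 14.2%, as fewer peaks enter. The median fold was 4.36 instead of 5.44 over the 9 peaks with more than 1 input read (an alternative chosen after seeing the data, as were pairs A and B alone), and the other 6 alternatives gave 5.23 to 5.45. By the median fold of its peaks the gene ranked 185 instead of 53. Without the share in the 3' UTR, 1 of the 5 genes most like Cdk6 stayed, and 4 or 5 did under the other 3 alternatives. No paired analysis was possible because the list holds no values per labelled library. Leaving out a replicate was not run for the same reason, beyond the inferred pairs. Depth limits the folds: with 1 input read the counting interval spans 7.83 to 8.04 log2 units.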
